A study of Mus musculus with 14 samples.

Results

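Mouse hepatocytes kept for 3 weeks under the culture named LBDXL were compared, gene by gene, with hepatocytes kept for 3 days under the culture named BM. The comparison rests on 4 of the 14 RNA-seq libraries of the series, chosen by their labels alone: LBDXL 3W 1 and 2, and BM 3D 1 and 2. The question was which genes the 3-week LBDXL cells kept better, or worse, than 3 days of BM culture did. All libraries came from C57BL/6 mouse liver. The labels name no genetic change or added agent in these cells and do not expand BM or LBDXL. Freshly isolated hepatocytes (FH, 2 libraries) gave the reference level for what was kept. The other groups, each of 2 libraries, were BM cells at 1 day and 3 weeks, FH Yap-/- cells and BM 3W Yap-/- cells. They entered the fit through the filter, the scaling and the shared estimate of the spread. LBDXL 3W and BM 3D differ both in culture and in time, and the 2 cannot be told apart here. No label states whether replicate libraries are from different mice or dishes. The p-values then reflect the spread among these samples alone, and that spread may be technical.

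Hepatocytes are the parenchymal cells of the liver. They make most plasma proteins, run the urea cycle, release glucose, convert drugs and form bile acids, under a network of nuclear receptors and liver-enriched transcription factors. On stiff plastic they are known to flatten, lose these functions and take up a cytoskeletal and proliferative programme, and the co-activator YAP, which enters the nucleus under mechanical tension and acts through TEAD factors, is a known part of that programme. The title of the series names YAP activation by tension as its subject.

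Levels are CPM, read counts relative to the size of the library, after TMM scaling, which corrects for the makeup of each library. A gene was called higher or lower in LBDXL 3W when edgeR's quasi-likelihood F-test gave an adjusted p (Benjamini-Hochberg, over 14100 tested genes) under 0.05. Differences are log2(LBDXL 3W / BM 3D) ± standard error. Levels as a percent of FH are descriptions from group means. The libraries held 17704762 to 20431393 counts in these 2 groups. Replicates were unequal: the chi-square per degree of freedom between the 2 libraries was 235 in LBDXL 3W and 178 in BM 3D, against 5.49 in FH. The fit shares its estimate of the spread over all groups, so standard errors and p-values may be too small for LBDXL 3W and BM 3D. In a fit on the 4 compared libraries alone 0 genes passed in either direction (12351 tested by edgeR; 1068 higher and 1079 lower at an unadjusted p under 0.05), and DESeq2 on the same 4 libraries called 577 higher and 545 lower. Without LBDXL 3W 2 the counts fell to 155 higher and 172 lower, and without BM 3D 1 to 207 and 391. Below, a gene that lost its call without a library or under another setting had an adjusted p of at least 0.05 there, and a gene whose call held had one under 0.05 in each of 24 refits (other scalings, filters and tests, a replicate block and each of 14 libraries left out). Neither fit on 4 libraries is among them. A limit of 1 on the log2 difference is counted among them, though it refits nothing and only drops calls of a smaller size. FPKM, which also divide by gene length, were tested with limma.

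Across all genes, 869 were higher in LBDXL 3W (6.16% of those tested) and 978 were lower (6.94%), or 13.1% in either direction. Most of the differences brought LBDXL 3W nearer to fresh cells than BM 3D was. Of the 869 higher genes, 703 (80.9%) lay nearer to FH in LBDXL 3W and 166 lay farther above it. Of the 978 lower genes, 730 (74.6%) lay nearer to FH in LBDXL 3W and 248 had dropped farther below it. The same count over all 14100 genes, called or not, was 9451 (67.0%) nearer to FH in LBDXL 3W. By total counts 71.7% of the same called genes were nearer to FH in LBDXL 3W, under the 75.8% of all genes. With total counts as the only scaling, 452 genes were higher and 2886 lower, and that scaling moved the median of all log2 differences from -0.05 to -0.53, against which total-count values are to be read. On log2(FPKM + 1) limma called 518 higher and 2830 lower.

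**Figure D1:**
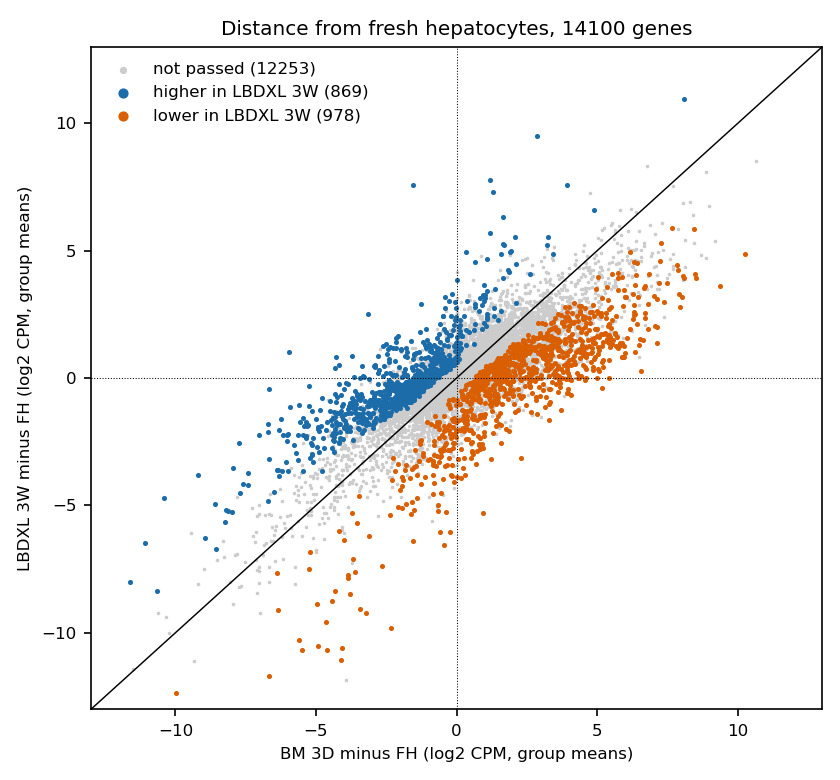
Each point is 1 of 14100 genes, with its log2 difference from FH in BM 3D on the x axis and in LBDXL 3W on the y axis (log2 CPM, group means). The diagonal marks an equal level in both, and the 869 genes called higher in LBDXL 3W (blue) and the 978 called lower (orange) lie on either side of it, most of them closer to 0 on the y axis than on the x axis.

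Among 1949 genes with an FH mean of at least 100 CPM, 369 were called higher in LBDXL 3W and 61 lower. Their median level was 72.8% of FH in LBDXL 3W and 52.5% in BM 3D. Library by library this median was 63.9% and 76.1% in LBDXL 3W, and 50.7% and 53.5% in BM 3D. BM cells at 3 weeks, the same time as LBDXL 3W, had 35.3% and 30.4%. Better kept genes, called higher in LBDXL 3W with BM 3D below FH, numbered 362. Worse kept genes, called lower with LBDXL 3W below FH, numbered 48. Among 3347 genes under 1 CPM in FH, 52 were called higher in LBDXL 3W and 351 lower, against 6.16% higher and 6.94% lower over all genes. A gene this low in FH could pass the filter through a cultured group where it was high, so these counts are partly set by the filter.

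Among the 10 best kept genes, Cyp2c29, a cytochrome P450, stood at 1564 and 7798 CPM in LBDXL 3W against 42.5 and 17.3 CPM in BM 3D, with 1715 ± 57.8 CPM in FH (SD, n = 2). Both LBDXL 3W libraries lay above both BM 3D libraries, which the choice of these 10 genes required (log2 7.29 ± 1.05, adjusted p = 0.00463). Akr1d1, a steroid reductase of bile acid synthesis, stood at 169.9 and 716 CPM in LBDXL 3W against 13.3 and 9.65 CPM in BM 3D. The LBDXL 3W mean was 102% of FH (435 ± 5.85 CPM), but LBDXL 3W 1 lay well below FH and LBDXL 3W 2 well above it. BM 3D held 2.64% of FH (log2 5.27 ± 0.61, adjusted p = 0.00290). Ces1d, a carboxylesterase of the endoplasmic reticulum, stood at 57.4 and 539.9 CPM in LBDXL 3W against 7.82 and 2.76 CPM in BM 3D and had 1023 ± 0.0929 CPM in FH (log2 5.81 ± 0.96, adjusted p = 0.00672). Its 2 LBDXL 3W libraries were far apart, and both were above the BM 3D range, as the same choice required. These 3 calls held in all refits.

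Cyp1a2, a P450 that oxidises aromatic amines, stood at 311 and 4367 CPM in LBDXL 3W against 43.5 and 5.32 CPM in BM 3D, with 1559.9 ± 28.9 CPM in FH. LBDXL 3W 2 was above FH and LBDXL 3W 1 below it (log2 6.58 ± 1.46, adjusted p = 0.0189). Cyp8b1, which sets the cholic acid share of bile acids, stood at 8.67 and 84.1 CPM in LBDXL 3W against 0.972 and 0.296 CPM in BM 3D (log2 6.14 ± 1.26, adjusted p = 0.0144), or 12.1% of FH against 0.166%. Inmt, an amine methyltransferase, stood at 3.01 and 17.3 CPM in LBDXL 3W against 0.122 and 0.296 CPM in BM 3D (log2 5.605 ± 1.23, adjusted p = 0.0182), and its 649 ± 14.7 CPM in FH left both cultures under 2% of fresh. Nlrp6, an innate immune sensor, and the carboxylesterases Ces1f and Ces1g completed the 10 best kept genes together with Cyp7a1, which is described with the bile acid genes. Cyp1a2, Cyp8b1, Inmt, Nlrp6 and Ces1f lost their calls without LBDXL 3W 2 (adjusted p 0.0648 to 0.123), Cyp8b1, Inmt, Nlrp6, Ces1f and Ces1g without BM 3D 1 (adjusted p 0.05004 to 0.107), and Cyp1a2, Cyp8b1, Inmt, Nlrp6, Ces1f and Ces1g without BM 3D 2 (adjusted p 0.0501 to 0.0686). Inmt and Ces1f lost their calls on an FPKM scale (adjusted p 0.0542 to 0.105).

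Among the 10 largest rises of all genes, Sult2a1 and Sult2a2, sulfotransferases of steroids and bile acids, were carried mainly by 1 library. Sult2a1 stood at 187 and 2.54 CPM in LBDXL 3W against 0.0810 and 0.197 CPM in BM 3D and Sult2a2 at 105 and 4.35 CPM in LBDXL 3W against 0.0810 and 0.493 CPM in BM 3D. LBDXL 3W 1 was the high library for both (log2 9.40 ± 1.83, adjusted p = 0.0136 and log2 7.63 ± 1.48, adjusted p = 0.0135). Summed over the 8 members of the Sult2a family, LBDXL 3W had 295 and 12.4 CPM against a mean of 2115 in FH, so the family as a whole stayed below the fresh level. Near-identical members of this and other families (Mup, Cyp2c, Cyp3a, Cyp2b, Ces1, Saa, Serpina1) can exchange reads, and values of single members are uncertain. Sult2a1 and Sult2a2 lost their calls without BM 3D 1 (adjusted p 0.0835 to 0.0860) and Sult2a1 without BM 3D 2 (adjusted p = 0.0530). Sult2a1 lost its call on an FPKM scale (adjusted p = 0.0589).

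Worse kept genes were led by the major urinary proteins, small secreted carriers of pheromones that the liver makes in large amounts. Of 20 tested members of the family, 15 were lower in LBDXL 3W and 0 higher. Their summed level was 654 and 249 CPM in LBDXL 3W, against 3277 and 8717 CPM in BM 3D. Both cultures were under the 42296 CPM of FH, at 1.07% and 14.2% of it. Mup15 stood at 0.0529 and 0.846 CPM in LBDXL 3W against 23.2 and 97.9 CPM in BM 3D (log2 -7.11 ± 1.204, adjusted p = 0.00727). Mup16 stood at 0.106 and 0.725 CPM in LBDXL 3W against 12.2 and 34.5 CPM in BM 3D (log2 -5.84 ± 0.74, adjusted p = 0.00323). Mup1 stood at 0.159 and 2.42 CPM in LBDXL 3W against 45.9 and 56.3 CPM in BM 3D (log2 -5.34 ± 0.79, adjusted p = 0.00485). In each of these the lower BM 3D library exceeded the higher LBDXL 3W library by more than 10 times.

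Igf1, the circulating growth factor that the liver secretes under growth hormone (chromosome 10, 87858265 to 87937047, NCBI gene 16000 in GRCm38.p6), was also worse kept. It stood at 2.06 and 0.302 CPM in LBDXL 3W against 13.2 and 86.5 CPM in BM 3D, with 1538 ± 7.19 CPM in FH (log2 -5.37 ± 0.92, adjusted p = 0.00740). LBDXL 3W thus kept 0.0768% of FH against 3.24%. BM cells at 3 weeks had 58.6 and 74.7 CPM of Igf1, above both LBDXL 3W libraries. Socs2, a feedback inhibitor of growth hormone signalling, was lower as well, at 4.49 and 0.785 CPM in LBDXL 3W against 17.3 and 14.5 CPM in BM 3D (log2 -2.57 ± 0.56, adjusted p = 0.0183). Of 17 genes of the insulin-like growth factor axis, Igf1 and Socs2 were the 2 lower and Irs1, an adaptor of the insulin receptor, the 1 higher (log2 1.198 ± 0.27, adjusted p = 0.0195). That list's median was 0.25 and turned to -0.16 by total counts. Irs1 lost its call without LBDXL 3W 2 (adjusted p = 0.145) and Socs2 and Irs1 without BM 3D 1 (adjusted p 0.0653 to 0.105). Irs1 lost its call by total counts (adjusted p = 0.0546) and on an FPKM scale (adjusted p 0.0636 to 0.0883).

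Other secreted or ester-cleaving proteins were worse kept too. Saa1, a serum amyloid A of the acute phase, stood at 5.23 and 0.121 CPM in LBDXL 3W against 193 and 28.9 CPM in BM 3D and 103 ± 0.881 CPM in FH (log2 -5.35 ± 1.26, adjusted p = 0.0229). BM 3D 1 was the high library and LBDXL 3W 2 the low one. Ces3a, a carboxylesterase, stood at 1.43 and 4.71 CPM in LBDXL 3W against 73.8 and 67.5 CPM in BM 3D, and its 3406 ± 8.79 CPM in FH put both cultures under 3% of fresh (log2 -4.53 ± 0.78, adjusted p = 0.00775). Lect2, a hepatokine, stood at 0.529 and 0.121 CPM in LBDXL 3W against 6.93 and 7.98 CPM in BM 3D (log2 -4.45 ± 0.61, adjusted p = 0.00408). Hpx, the haem-binding plasma protein hemopexin, differed from these in that both BM 3D libraries were above fresh cells. For Saa1 only BM 3D 1 was. Hpx stood at 2161 and 1294 CPM in LBDXL 3W against 8153 and 9804 CPM in BM 3D, or 38.5% of FH against 200.2% (log2 -2.38 ± 0.46, adjusted p = 0.0115). In BM cells at 3 weeks the means of Saa1, Ces3a and Hpx were under those of LBDXL 3W, and that of Lect2 was above. Saa1 and Hpx lost their calls without LBDXL 3W 2 (adjusted p 0.0727 to 0.0871) and Saa1 without BM 3D 1 (adjusted p = 0.107).

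**Figure D2:**
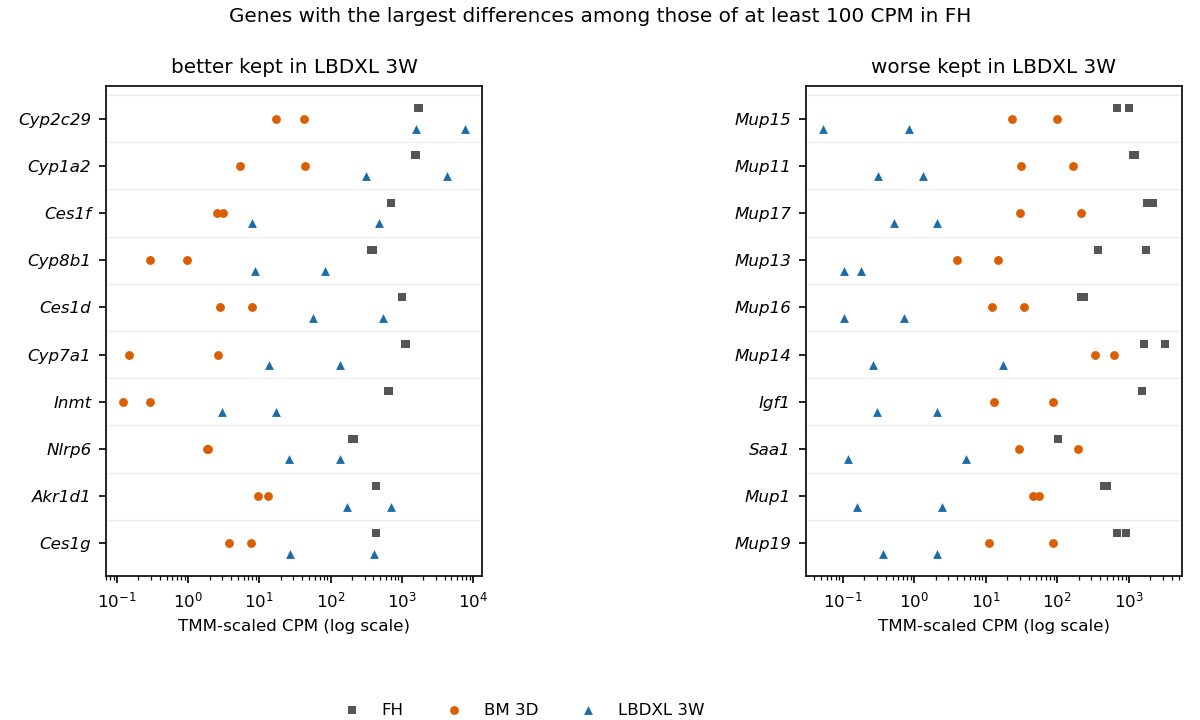
Levels (TMM-scaled CPM, log axis, values under 0.05 drawn at 0.05) of the 10 best kept and the 10 worst kept genes by size of difference, 1 point per library, for FH (squares), BM 3D (circles) and LBDXL 3W (triangles). For the better kept genes the triangles lie to the right of the circles in every panel line, and for the worse kept genes, 8 of them Mup genes, to the left. No overlap between LBDXL 3W and BM 3D was a condition for choosing these genes, so this separation is not a result.

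Genes were then grouped in 50 lists of liver functions, signalling targets and cell types. The lists with the most calls higher in LBDXL 3W were those of amino acid breakdown, glucose production and drug metabolism, and those with the most calls lower were cell division and macrophage markers. Across all tested genes 46.4% of log2 differences were above 0, and the share of genes whose libraries did not overlap between the 2 groups was 50.5%. Counts of the lists are to be read against 6.16% higher and 6.94% lower. Most counts dropped when LBDXL 3W 2, BM 3D 1 or BM 3D 2 was left out, and the lowest count over all left-out libraries is given with each larger list.

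**Figure D3:**
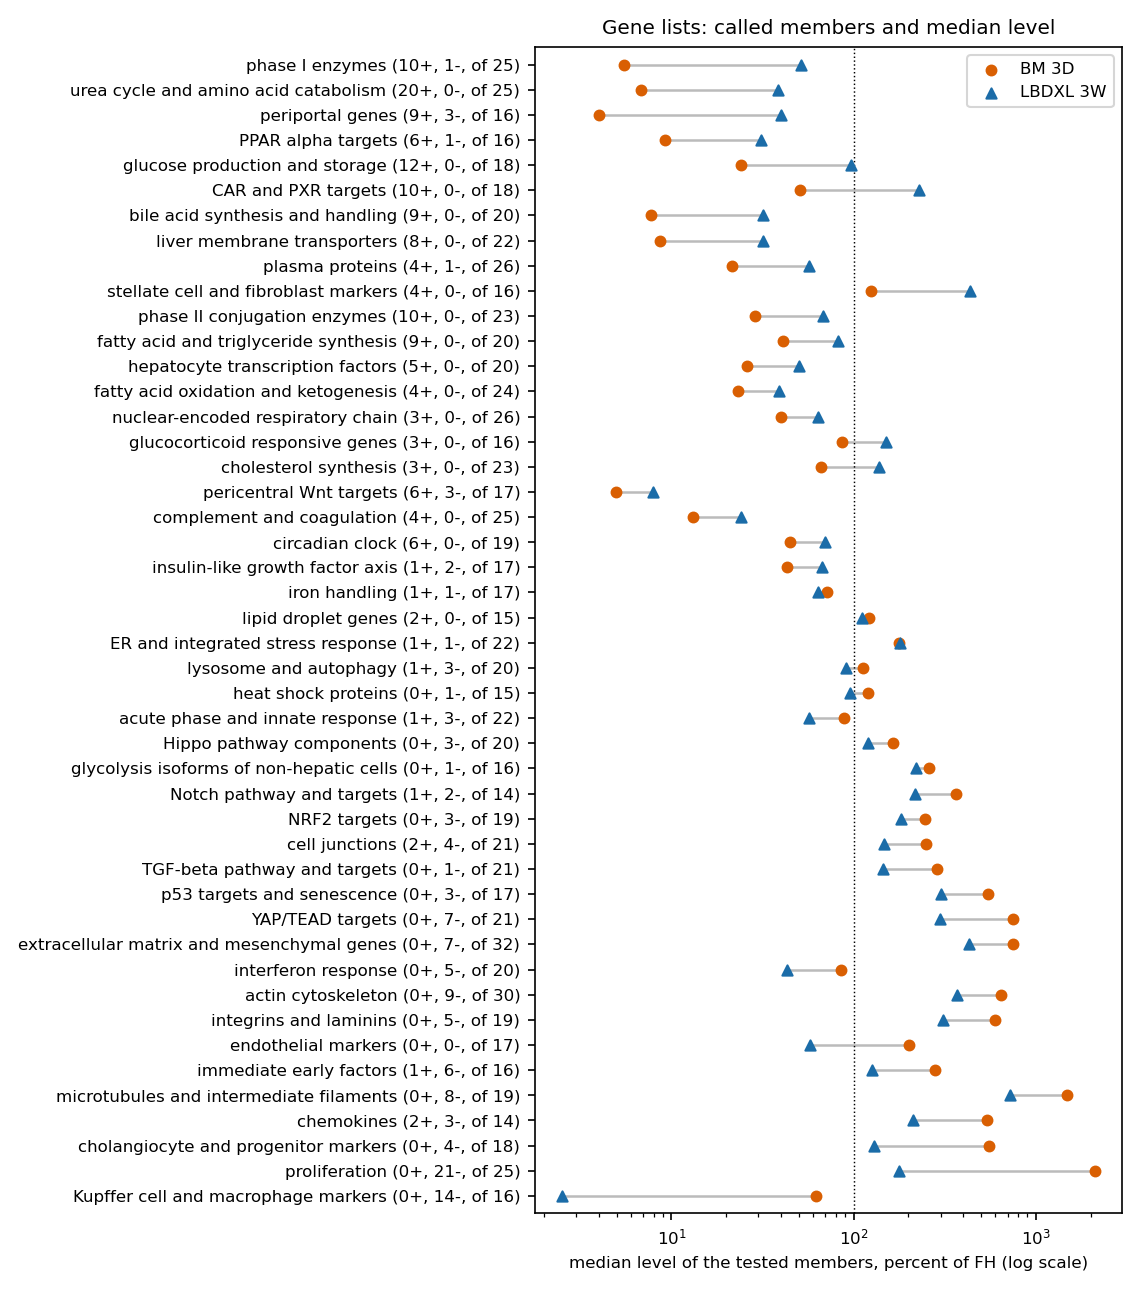
Median level of the tested members of each list with at least 14 of them, as a percent of FH on a log axis, in BM 3D (circles) and LBDXL 3W (triangles). The counts behind each name give members called higher (+) and lower (-) in LBDXL 3W, and lists are ordered by their median log2 difference, from Kupffer cell and proliferation genes at the bottom to phase I enzymes and amino acid catabolism at the top.

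The transcription factors that hold hepatocyte identity were higher or not different by the test. Of 20 tested, 5 were higher and 0 lower (median log2 0.82, against -0.05 over all genes), and 18 lay nearer to FH in LBDXL 3W. Nr1i3, the xenobiotic receptor CAR, stood at 28.8 and 107 CPM in LBDXL 3W against 1.34 and 2.66 CPM in BM 3D and 263 ± 19.1 CPM in FH (log2 5.10 ± 0.79, adjusted p = 0.00576). Cebpa, a leucine zipper factor of hepatocyte differentiation, stood at 80.6 and 169.8 CPM in LBDXL 3W against 19.4 and 29.2 CPM in BM 3D (log2 2.36 ± 0.40, adjusted p = 0.00713). Both LBDXL 3W libraries were above both BM 3D libraries for these genes, and below FH. Hnf4a, a central hepatocyte nuclear receptor, stood at 919 and 993 CPM in LBDXL 3W against 366 and 500.4 CPM in BM 3D, or 90.1% of FH against 40.8% (log2 1.14 ± 0.31, adjusted p = 0.0382). Rxra, the shared partner of many nuclear receptors, stood at 319.7 and 632 CPM in LBDXL 3W against 114 and 159.6 CPM in BM 3D (log2 1.80 ± 0.33, adjusted p = 0.0103), and Nr5a2, a regulator of bile acid genes, was higher by less (log2 0.78 ± 0.23, adjusted p = 0.0492). Hnf4a, Rxra and Nr5a2 lost their calls without LBDXL 3W 2 (adjusted p 0.0605 to 0.149), without BM 3D 1 (adjusted p 0.0672 to 0.230), Hnf4a and Nr5a2 without BM 3D 2 (adjusted p 0.0587 to 0.0670), and Nr5a2 without LBDXL 3W 1 (adjusted p = 0.104). Hnf4a lost its call without FH 1 or 2, FH Yap-/- 1 or 2 or BM 3W Yap-/- 1 or 2 (adjusted p 0.0520 to 0.0698). Nr5a2 lost its call without FH 1 or 2, FH Yap-/- 1 or 2, BM 1D 1 or 2 or BM 3W 1 or 2 (adjusted p 0.0523 to 0.0847). Hnf4a and Nr5a2 lost their calls by total counts (adjusted p 0.0902 to 0.276) and Nr5a2 on an FPKM scale (adjusted p 0.102 to 0.136). Nr5a2 also lost its call with DESeq2 size factors (adjusted p = 0.0573) and with no filter on low counts (adjusted p = 0.0619). The same held without the 20 most abundant genes (adjusted p = 0.0514). Its log2 difference was under the limit of 1, which dropped the call without a test. The factors' count of 5 was 2 without LBDXL 3W 2 or BM 3D 1 and 3 by total counts.

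Plasma protein genes mostly leaned higher but few passed. Of 26, 4 were higher and 1, Hpx, lower, while 24 had a log2 difference above 0 (median 1.47). Alb, albumin (chromosome 5, 90460870 to 90476602, NCBI gene 11657), stood at 186886 and 129833 CPM in LBDXL 3W against 25442 and 71046 CPM in BM 3D, with 152499 ± 3662 CPM in FH. The 2 BM 3D libraries differed from each other by more than 2 times, and Alb did not pass (log2 1.71 ± 1.09, adjusted p = 0.318). Ttr, the thyroid hormone carrier transthyretin, did not pass either, at 1965 and 2457 CPM in LBDXL 3W against 1059 and 887 CPM in BM 3D (log2 1.18 ± 0.59, adjusted p = 0.204). Those that passed were Apoa2, an apolipoprotein of high-density lipoprotein (log2 3.72 ± 0.97, adjusted p = 0.0324), F9, coagulation factor IX (log2 2.10 ± 0.48, adjusted p = 0.0203), and Serpina1a and Serpina1b, alpha-1-antitrypsins of a near-identical family (log2 2.11 ± 0.59, adjusted p = 0.0405 and log2 2.01 ± 0.59, adjusted p = 0.0464). Among 25 complement and coagulation genes 4 were higher and 0 lower. F7, the clotting protease that starts the tissue factor pathway, stood at 123 and 76.1 CPM in LBDXL 3W against 23.98 and 17.4 CPM in BM 3D (log2 2.27 ± 0.42, adjusted p = 0.0106), a call that held in all refits. Without BM 3D 1 the plasma protein count was 0 and that of complement and coagulation 1. Apoa2, F9, Serpina1a and Serpina1b lost their calls without LBDXL 3W 2 (adjusted p 0.133 to 0.239), without BM 3D 1 (adjusted p 0.105 to 0.209), and without BM 3D 2 (adjusted p 0.0628 to 0.128). Apoa2 lost its call without FH 1, FH Yap-/- 1 or 2 or BM 3W Yap-/- 1 or 2 (adjusted p 0.05002 to 0.0527). Serpina1a lost its call without FH 1 or 2, FH Yap-/- 1 or 2, BM 1D 1 or BM 3W Yap-/- 1 or 2 (adjusted p 0.0506 to 0.0660). Serpina1b lost its call without FH 1 or 2, FH Yap-/- 1 or 2, BM 1D 1 or 2 or BM 3W Yap-/- 1 or 2 (adjusted p 0.0570 to 0.0771). Serpina1b lost its call with a replicate block (adjusted p = 0.0552) and Apoa2, Serpina1a and Serpina1b on an FPKM scale (adjusted p 0.0611 to 0.130). The plasma protein count of 4 was 0 without LBDXL 3W 2, BM 3D 1 or BM 3D 2 and 7 without LBDXL 3W 1. The complement and coagulation count of 4 was 1 without LBDXL 3W 2, BM 3D 1 or BM 3D 2.

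The urea cycle and amino acid catabolism had the largest share of genes called higher among the 50 lists. Of 25, 20 were higher in LBDXL 3W and 0 lower (median log2 2.71), and their median level was 38.6% of FH against 6.76% in BM 3D. Arg1, the arginase that releases urea, stood at 2294 and 2777 CPM in LBDXL 3W against 402 and 370.4 CPM in BM 3D and 2198 ± 144 CPM in FH, which put both LBDXL 3W libraries at or above fresh cells and both BM 3D libraries far below (log2 2.71 ± 0.32, adjusted p = 0.00290). Ass1, argininosuccinate synthase, stood at 1095 and 2752 CPM in LBDXL 3W against 233 and 257 CPM in BM 3D (log2 2.97 ± 0.54, adjusted p = 0.00978). Tdo2, which opens tryptophan breakdown, stood at 778 and 3743 CPM in LBDXL 3W against 131 and 148 CPM in BM 3D, or 71.7% of FH against 4.43% (log2 4.02 ± 0.82, adjusted p = 0.0136). The urea cycle lyase Asl (log2 2.66 ± 0.51, adjusted p = 0.0114) and the histidine-pathway enzyme Uroc1 (log2 2.95 ± 0.61, adjusted p = 0.0149) were higher too. Cps1, the entry enzyme of the cycle, stood at 5418 and 9613 CPM in LBDXL 3W against 1688 and 3783 CPM in BM 3D and did not pass (log2 1.46 ± 0.78, adjusted p = 0.236). Levels depended on the library: the list's median was 23.8% of FH in LBDXL 3W 1 and 56.2% in LBDXL 3W 2, against 5.06% and 5.02% in BM 3D. The count of 20 was 1 without LBDXL 3W 2, 4 without BM 3D 1 and 8 without BM 3D 2. Ass1, Tdo2, Asl and Uroc1 lost their calls without LBDXL 3W 2 (adjusted p 0.0507 to 0.0871), without BM 3D 1 (adjusted p 0.0555 to 0.0911), and Tdo2 without BM 3D 2 (adjusted p = 0.0526).

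Glucose production and storage stood near the fresh level in LBDXL 3W. Of 18 genes, 12 were higher and 0 lower (median log2 2.24), and the median level was 97.3% of FH against 24.03% in BM 3D. Slc37a4, the glucose 6-phosphate carrier of the endoplasmic reticulum, stood at 250.5 and 594 CPM in LBDXL 3W against 36.5 and 59.9 CPM in BM 3D and 279.9 ± 14.3 CPM in FH (log2 3.13 ± 0.45, adjusted p = 0.00463). Khk, which phosphorylates fructose, stood at 595 and 584 CPM in LBDXL 3W against 69.1 and 66.4 CPM in BM 3D (log2 3.12 ± 0.40, adjusted p = 0.00323). Ppp1r3c, a glycogen-targeting subunit of protein phosphatase 1, stood at 43.8 and 75.8 CPM in LBDXL 3W against 0.891 and 4.78 CPM in BM 3D (log2 4.41 ± 0.75, adjusted p = 0.00729). All 3 were well below FH in BM 3D, and their LBDXL 3W means were above it, at 151%, 218% and 135% of FH. G6pc, the catalytic subunit of glucose-6-phosphatase, stood at 104 and 257 CPM in LBDXL 3W against 15.8 and 6.85 CPM in BM 3D (log2 3.99 ± 0.86, adjusted p = 0.0170). Pygl, liver glycogen phosphorylase, stood at 702 and 506 CPM in LBDXL 3W against 204 and 251 CPM in BM 3D (log2 1.41 ± 0.30, adjusted p = 0.0156). Pck1, which commits carbon to gluconeogenesis, was barely kept in either culture: 15.01 and 175 CPM in LBDXL 3W against 25.8 and 27.5 CPM in BM 3D compare with 6351 ± 107 CPM in FH, and it did not pass (log2 1.83 ± 0.76, adjusted p = 0.135). The glucose count of 12 was 5 without LBDXL 3W 2 and 4 without BM 3D 1. G6pc lost its call without LBDXL 3W 2 (adjusted p = 0.0871), G6pc and Pygl without BM 3D 1 (adjusted p 0.0575 to 0.0927), and G6pc without BM 3D 2 (adjusted p = 0.0756).

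The G6pc promoter is shown because HNF1, a liver-enriched factor, is known to act on this gene, and 5 of the 13 glucose list genes with a RefSeq promoter (38.5%) held the letters GTTAAT or their reverse complement ATTAAC within 250 bases before the start, against 5.51% of 11213 tested genes with a promoter. The sequence is on the plus strand of GRCm38.p6, chr11:101367466-101367715, from RefSeq, with the match in capitals. Motifs were chosen after the values were seen, and a match describes letters only.
G6pc: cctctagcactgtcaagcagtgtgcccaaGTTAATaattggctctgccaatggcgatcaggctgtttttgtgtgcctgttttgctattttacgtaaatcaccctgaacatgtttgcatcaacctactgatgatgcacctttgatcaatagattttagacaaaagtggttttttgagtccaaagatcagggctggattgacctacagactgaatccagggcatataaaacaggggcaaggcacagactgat

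Drug-metabolising enzymes of phase I, which oxidise or hydrolyse foreign compounds, were higher in 10 of 25 cases and lower in 1, Ces3a (median log2 2.73). Their median level was 51.7% of FH against 5.51% in BM 3D, and again the LBDXL 3W libraries differed, at 12.9% and 74.4%. Cyp2f2, a P450 of the periportal zone, stood at 339 and 1862 CPM in LBDXL 3W against 69.4 and 58.6 CPM in BM 3D and 2630.4 ± 36.3 CPM in FH (log2 4.10 ± 0.72, adjusted p = 0.00851). Cyp3a25 stood at 704 and 2816 CPM in LBDXL 3W against 132 and 26.1 CPM in BM 3D, with LBDXL 3W 2 above FH (774 ± 13.3 CPM) and LBDXL 3W 1 just under it (log2 4.47 ± 0.79, adjusted p = 0.00851). Fmo1, a flavin monooxygenase, was higher as well (log2 2.95 ± 0.63, adjusted p = 0.0159). Cyp2e1, the ethanol-inducible P450 and among the most abundant in fresh cells, passed at levels that were a trace of FH: 25.8 and 248 CPM in LBDXL 3W against 4.50 and 8.96 CPM in BM 3D compare with 20512 ± 773 CPM (log2 4.35 ± 1.28, adjusted p = 0.0468). Cyp3a11, at 8728 and 21955 CPM in LBDXL 3W against 2558 and 839 CPM in BM 3D, did not pass (log2 3.18 ± 0.96, adjusted p = 0.0518), although all 4 libraries but BM 3D 2 exceeded the 966 ± 23.2 CPM of FH. Summed over 7 Cyp3a genes, LBDXL 3W held 806% of FH and BM 3D 91.0%, and over 15 Cyp2c genes 66.8% and 5.05%. The Cyp2c sums of the LBDXL 3W libraries, 2013 and 9386 CPM, lay on both sides of the FH mean of 8536 CPM. The higher phase I count of 10 was 4 without LBDXL 3W 2 and 5 without BM 3D 1. Fmo1 and Cyp2e1 lost their calls without LBDXL 3W 2 (adjusted p 0.0830 to 0.386), without BM 3D 1 (adjusted p 0.0745 to 0.206), and without BM 3D 2 (adjusted p 0.0689 to 0.116). Cyp2e1 lost its call without FH 1 or 2, FH Yap-/- 1 or 2, BM 1D 1 or 2 or BM 3W Yap-/- 1 or 2 (adjusted p 0.0538 to 0.0730). Cyp2e1 lost its call with a replicate block (adjusted p = 0.0558) and on an FPKM scale (adjusted p 0.0599 to 0.124).

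Targets of the xenobiotic receptors CAR and PXR had a median level above the fresh one in LBDXL 3W. Of 18, 10 were higher and 0 lower (median log2 2.18), with a median of 229.6% of FH against 51.0% in BM 3D. Cyp2b10, the P450 most used as a CAR readout, stood at 2698 and 4348 CPM in LBDXL 3W against 679 and 320.2 CPM in BM 3D, and at only 1.63 ± 0.398 CPM in FH (log2 2.82 ± 0.71, adjusted p = 0.0291). Both cultures were thus far above fresh cells and LBDXL 3W was the higher one. Cyp2c55 stood at 8.99 and 10.5 CPM in LBDXL 3W against 1.46 and 0.345 CPM in BM 3D (log2 3.41 ± 0.54, adjusted p = 0.00591). Por, the reductase that feeds electrons to P450 enzymes, stood at 744 and 662 CPM in LBDXL 3W against 280.4 and 301 CPM in BM 3D, or 45.1% of FH against 18.7% (log2 1.27 ± 0.26, adjusted p = 0.0141). Of 6 tested targets of the aryl hydrocarbon receptor, Cyp1a1 (159 and 1893 CPM in LBDXL 3W against 37.6 and 0.690 CPM in BM 3D; log2 5.74 ± 1.54, adjusted p = 0.0354), Cyp1a2 and Ugt1a6a, a glucuronosyltransferase (log2 1.98 ± 0.45, adjusted p = 0.0201), were higher and 0 lower. The CAR and PXR count of 10 was 4 without LBDXL 3W 2, 3 without BM 3D 1 and 5 without BM 3D 2. The aryl hydrocarbon receptor count of 3 was 0 without LBDXL 3W 2 or BM 3D 2. Cyp2b10, Cyp1a1 and Ugt1a6a lost their calls without LBDXL 3W 2 (adjusted p 0.125 to 0.233), Cyp2b10 and Por without BM 3D 1 (adjusted p 0.0733 to 0.0770), and Cyp2b10, Cyp1a1 and Ugt1a6a without BM 3D 2 (adjusted p 0.0589 to 0.121). Cyp2b10 lost its call without FH Yap-/- 2 (adjusted p = 0.050005). Cyp1a1 lost its call without FH 1 or 2, FH Yap-/- 1 or 2 or BM 3W Yap-/- 1 or 2 (adjusted p 0.0534 to 0.0578). Cyp1a1 lost its call with a replicate block (adjusted p = 0.0535) and Ugt1a6a on an FPKM scale (adjusted p = 0.0762).

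Phase II enzymes, which attach glutathione, sulfate or glucuronic acid, were higher in 10 of 23 cases and lower in 0 (median log2 1.35; 67.5% of FH against 28.6%). Gstm2, a glutathione transferase, stood at 312 and 342 CPM in LBDXL 3W against 142 and 114 CPM in BM 3D and 93.0 ± 0.915 CPM in FH (log2 1.35 ± 0.20, adjusted p = 0.00485), with replicates close in both groups and a call that held in all refits. Its relative Gsta3 stood at 963 and 2024 CPM in LBDXL 3W against 415 and 333 CPM in BM 3D (log2 1.997 ± 0.37, adjusted p = 0.0101). Gstm3 stood at 1991 and 5625 CPM in LBDXL 3W against 515 and 142 CPM in BM 3D (log2 3.53 ± 0.66, adjusted p = 0.0107). For Gsta3 the LBDXL 3W mean was 76.5% of FH against 19.2%, with its libraries on both sides of the FH mean of 1953 CPM. For Gstm3 LBDXL 3W was far above FH, at 4420.1% of it against 381%. Sult1d1, a sulfotransferase, was also higher (log2 2.36 ± 0.48, adjusted p = 0.0142). The phase II count of 10 was 1 without LBDXL 3W 2, 16 without LBDXL 3W 1, 6 without BM 3D 1 and 5 without BM 3D 2. Gsta3, Gstm3 and Sult1d1 lost their calls without LBDXL 3W 2 (adjusted p 0.0510 to 0.0915) and Sult1d1 without BM 3D 1 (adjusted p = 0.0891).

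Bile acid synthesis and handling followed the same direction. Of 20 genes, 9 were higher and 0 lower (median log2 1.68; 31.8% of FH against 7.69%). Cyp7a1, the rate-limiting enzyme of bile acid synthesis, stood at 13.7 and 135 CPM in LBDXL 3W against 2.63 and 0.148 CPM in BM 3D, with 1128 ± 26.4 CPM in FH (log2 5.70 ± 1.31, adjusted p = 0.0206). LBDXL 3W 2 was about 10 times LBDXL 3W 1, and both were above BM 3D. Slc10a1, the bile acid uptake carrier NTCP, stood at 276 and 311 CPM in LBDXL 3W against 6.04 and 23.5 CPM in BM 3D (log2 4.31 ± 0.97, adjusted p = 0.0194) and was closely matched in the LBDXL 3W libraries. Klb, the co-receptor for the hormone FGF15 (log2 2.64 ± 0.57, adjusted p = 0.0166), Amacr, a racemase of side-chain shortening (log2 1.83 ± 0.41, adjusted p = 0.0195), and Cyp27a1, the sterol 27-hydroxylase (log2 1.98 ± 0.45, adjusted p = 0.0206), were higher too. Cyp7a1, Slc10a1, Klb, Amacr and Cyp27a1 lost their calls without LBDXL 3W 2 (adjusted p 0.0678 to 0.153), Slc10a1, Klb, Amacr and Cyp27a1 without BM 3D 1 (adjusted p 0.0759 to 0.101), and Cyp7a1, Amacr and Cyp27a1 without BM 3D 2 (adjusted p 0.0660 to 0.0794). Amacr and Cyp27a1 lost their calls on an FPKM scale (adjusted p 0.0521 to 0.0587). The bile acid count of 9 was 1 without LBDXL 3W 2, 2 without BM 3D 1 and 4 without BM 3D 2.

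The Cyp8b1 promoter is printed as a bile acid gene that was better kept and holds the letters AAAGTCC, a core of HNF4A sites. AAAGTCC or its reverse complement GGACTTT was found before 3 of 13 bile acid genes with a promoter (23.1%), against 4.58% of all 11213. The letters were not particular to this list. They were also found before 3 of 20 cell division genes (15%), whose calls were lower, 3 of 21 phase I genes (14.3%) and 0 of 13 glucose list genes. The sequence is on the minus strand of GRCm38.p6, chr9:121916306-121916555, from RefSeq, with the match in capitals.
Cyp8b1: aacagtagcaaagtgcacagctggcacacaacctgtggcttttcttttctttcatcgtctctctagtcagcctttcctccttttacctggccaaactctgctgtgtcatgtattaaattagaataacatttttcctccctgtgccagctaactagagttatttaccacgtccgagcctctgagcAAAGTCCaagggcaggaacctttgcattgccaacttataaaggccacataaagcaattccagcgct

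Membrane transporters of the liver were higher in 8 of 22 cases and lower in 0 (median log2 1.51, or 1.26 with genes at 0 counts in a group set to their bound). Slc16a10, a carrier of aromatic amino acids, stood at 81.0 and 126 CPM in LBDXL 3W against 43.8 and 40.9 CPM in BM 3D and 255 ± 6.58 CPM in FH (log2 1.29 ± 0.22, adjusted p = 0.00742), and the call held in all refits. Slc2a2, the liver glucose carrier GLUT2, stood at 619 and 779.6 CPM in LBDXL 3W against 31.0 and 136 CPM in BM 3D, or 106% of FH against 12.7% (log2 3.07 ± 0.78, adjusted p = 0.0291). The glutamine and neutral amino acid carriers Slc38a3 (log2 2.19 ± 0.50, adjusted p = 0.0204) and Slc38a4 (log2 1.45 ± 0.33, adjusted p = 0.0210) and the organic anion carrier Slco1a4 (196 and 261 CPM in LBDXL 3W against 50.1 and 4.73 CPM in BM 3D; log2 3.06 ± 0.78, adjusted p = 0.0301) were higher as well. Slc2a2, Slc38a3, Slc38a4 and Slco1a4 lost their calls without LBDXL 3W 2 (adjusted p 0.111 to 0.144), Slc2a2, Slc38a3 and Slc38a4 without BM 3D 1 (adjusted p 0.0988 to 0.125), and Slc38a3 and Slc38a4 without BM 3D 2 (adjusted p 0.0670 to 0.0701). The transporter count of 8 was 1 without LBDXL 3W 2, 13 without LBDXL 3W 1, 2 without BM 3D 1 and 4 without BM 3D 2.

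Fatty acid and triglyceride synthesis was higher in 9 of 20 genes and lower in 0 (median log2 1.22; 82.3% of FH against 40.9%). Thrsp, a nuclear protein that promotes lipogenesis, stood at 163 and 586 CPM in LBDXL 3W against 15.6 and 19.3 CPM in BM 3D and 661 ± 12.9 CPM in FH (log2 4.42 ± 0.60, adjusted p = 0.00387). Fasn, fatty acid synthase, stood at 1602 and 3536 CPM in LBDXL 3W against 359 and 404 CPM in BM 3D, well above the 294 ± 6.95 CPM of FH in LBDXL 3W (log2 2.75 ± 0.38, adjusted p = 0.00438). Thrsp was thus better kept, while Fasn ran past the fresh level. The desaturase Fads1 was higher (log2 1.503 ± 0.30, adjusted p = 0.0126). Elovl6, an elongase, was at 235 and 277 CPM in LBDXL 3W against 98.2 and 91.2 CPM in BM 3D (log2 1.43 ± 0.31, adjusted p = 0.0170). In cholesterol synthesis 3 of 23 genes were higher and 0 lower, among the higher the sterol reductase Dhcr7 (log2 1.58 ± 0.34, adjusted p = 0.0163). The fatty acid synthesis count of 9 was 3 without LBDXL 3W 2 or BM 3D 2 and 4 without BM 3D 1. The cholesterol synthesis count of 3 was 0 without LBDXL 3W 2 or BM 3D 1, 7 without LBDXL 3W 1 and 1 without BM 3D 2. Fads1, Elovl6 and Dhcr7 lost their calls without LBDXL 3W 2 (adjusted p 0.0781 to 0.110), without BM 3D 1 (adjusted p 0.0522 to 0.0784), and without BM 3D 2 (adjusted p 0.0524 to 0.0647). Dhcr7 lost its call on an FPKM scale (adjusted p = 0.0560).

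Fatty acid oxidation and ketogenesis showed fewer calls, with 4 of 24 higher and 0 lower, though 23 had a log2 difference above 0 (median 0.81). Ehhadh, the bifunctional enzyme of peroxisomal oxidation, stood at 67.5 and 203 CPM in LBDXL 3W against 25.9 and 30.7 CPM in BM 3D and 459 ± 1.02 CPM in FH (log2 2.26 ± 0.47, adjusted p = 0.0148). Both of its LBDXL 3W libraries lay between BM 3D and FH. Hadh, a mitochondrial dehydrogenase, was also higher (log2 1.42 ± 0.33, adjusted p = 0.0227). Of 16 PPAR alpha targets 6 were higher, among them the thioesterase Acot1 (log2 2.45 ± 0.53, adjusted p = 0.0169) and Cyp4a14, which rested on LBDXL 3W 2 alone (1.06 and 58.3 CPM in LBDXL 3W against 1.09 and 0.246 CPM in BM 3D; log2 5.42 ± 1.36, adjusted p = 0.0285). Vnn1, a pantetheinase, was the 1 lower, at 7.08 and 7.31 CPM in LBDXL 3W against 29.6 and 15.9 CPM in BM 3D (log2 -1.66 ± 0.38, adjusted p = 0.0215). Ehhadh, Hadh, Acot1, Cyp4a14 and Vnn1 lost their calls without LBDXL 3W 2 (adjusted p 0.103 to 0.704), Ehhadh, Hadh, Cyp4a14 and Vnn1 without BM 3D 1 (adjusted p 0.0869 to 0.123), and Hadh, Acot1 and Cyp4a14 without BM 3D 2 (adjusted p 0.0513 to 0.115). Hadh, Acot1 and Cyp4a14 lost their calls on an FPKM scale (adjusted p 0.0532 to 0.201). Nuclear-encoded respiratory chain genes were higher in 3 of 26 cases and lower in 0, with 25 above 0 (median log2 0.70, or 0.21 by total counts). The fatty acid oxidation count of 4 was 0 without LBDXL 3W 2 or BM 3D 1 and 11 without LBDXL 3W 1. The PPAR alpha target count of 6 was 1 without LBDXL 3W 2 or BM 3D 1. The respiratory chain count of 3 was 0 without LBDXL 3W 2, BM 3D 1 or BM 3D 2 or by total counts and 18 without LBDXL 3W 1.

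Zonal genes, which mark where along the lobule a hepatocyte sat, went in both directions. Of 16 periportal genes 9 were higher and 3 lower (median log2 2.66), and of 17 pericentral Wnt targets 6 were higher and 3 lower (median log2 0.62). The higher periportal genes included Arg1, Ass1 and Cyp2f2, and the lower ones were Igf1, Cdh1 and Ctsc. Cdh1, E-cadherin, stood at 71.5 and 44.2 CPM in LBDXL 3W against 258 and 214 CPM in BM 3D and 92.9 ± 0.656 CPM in FH (log2 -2.03 ± 0.26, adjusted p = 0.00323), so that LBDXL 3W was below fresh cells and BM 3D above. Ctsc, a lysosomal peptidase, stood at 41.2 and 18.6 CPM in LBDXL 3W against 132 and 119 CPM in BM 3D (log2 -2.07 ± 0.35, adjusted p = 0.00729). Among pericentral genes Glul, glutamine synthetase, stood at 265 and 325 CPM in LBDXL 3W against 127 and 92.9 CPM in BM 3D and 2226 ± 136 CPM in FH (log2 1.42 ± 0.30, adjusted p = 0.0161). Slc1a2, a glutamate carrier of the same cells, was all but lost in both cultures, at 0 and 0.0604 CPM in LBDXL 3W against 0.689 and 0.443 CPM in BM 3D, with 671 ± 24.6 CPM in FH (adjusted p = 0.00665). The LBDXL 3W value is 1 count in all, so no fold is given. Pericentral genes as a list stayed low, with a median of 7.90% of FH in LBDXL 3W and 4.94% in BM 3D. The higher periportal count of 9 was 3 without LBDXL 3W 2 and 2 without BM 3D 1. The higher pericentral count of 6 was 1 without LBDXL 3W 2 or BM 3D 2 and 3 without BM 3D 1. Glul lost its call without LBDXL 3W 2 (adjusted p = 0.0859) and without BM 3D 2 (adjusted p = 0.0738). Slc1a2 lost its call on an FPKM scale (adjusted p 0.287 to 0.894).

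Clock genes were higher in 6 of 19 cases and lower in 0 (median log2 0.49), the higher ones including the output factors Dbp, Tef and Hlf with Per3 and Ciart. Hlf, a PAR-domain factor, stood at 45.6 and 66.6 CPM in LBDXL 3W against 11.2 and 7.39 CPM in BM 3D and 121 ± 4.23 CPM in FH (log2 2.59 ± 0.38, adjusted p = 0.00485). Per3, a period gene, stood at 18.7 and 27.1 CPM in LBDXL 3W against 7.29 and 5.42 CPM in BM 3D (log2 1.84 ± 0.29, adjusted p = 0.00591). Fkbp5, a glucocorticoid-induced chaperone partner, stood at 558 and 669.5 CPM in LBDXL 3W against 141 and 177 CPM in BM 3D (log2 1.95 ± 0.31, adjusted p = 0.00614), and it was 1 of 3 higher among 16 glucocorticoid-responsive genes, with 0 lower. In all 3 both LBDXL 3W libraries were above both BM 3D libraries. The labels used here give no hour of sampling. Dbp and Ciart lost their calls without LBDXL 3W 2 (adjusted p 0.137 to 0.272), Tef and Ciart without BM 3D 1 (adjusted p 0.0617 to 0.104), and Dbp and Ciart without BM 3D 2 (adjusted p 0.0555 to 0.108). Dbp lost its call without FH 1 or FH Yap-/- 1 or 2 (adjusted p 0.0502 to 0.0510). Dbp and Per3 lost their calls on an FPKM scale (adjusted p 0.0535 to 0.189). The clock count of 6 was 4 without LBDXL 3W 2 or BM 3D 1. The glucocorticoid count of 3 was 1 without LBDXL 3W 2. Without LBDXL 3W 1, 5 glucocorticoid-responsive genes were lower.

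Cell division genes held more calls lower in LBDXL 3W than any other of the 50 lists. Of 25, 21 were lower and 0 higher (median log2 -3.52). Their median level was 178% of FH in LBDXL 3W against 2123% in BM 3D, so BM 3D stood far above fresh cells and LBDXL 3W nearer to them. Plk1, a mitotic kinase, stood at 0.634 and 0.483 CPM in LBDXL 3W against 23.1 and 5.52 CPM in BM 3D and 0.119 ± 0.0557 CPM in FH (log2 -4.66 ± 0.74, adjusted p = 0.00607). Ccnb2, a B-type cyclin, stood at 1.004 and 0.423 CPM in LBDXL 3W against 15.5 and 6.06 CPM in BM 3D (log2 -3.90 ± 0.63, adjusted p = 0.00646). Ccnb1 stood at 0.634 and 0.362 CPM in LBDXL 3W against 27.7 and 4.68 CPM in BM 3D (log2 -4.996 ± 0.85, adjusted p = 0.00729). Both LBDXL 3W libraries lay under both BM 3D libraries in each case. Cdk1, the kinase that these cyclins activate, stood at 2.38 and 1.15 CPM in LBDXL 3W against 32.9 and 9.16 CPM in BM 3D (log2 -3.57 ± 0.62, adjusted p = 0.00810). Mcm2, a subunit of the replication helicase, stood at 5.97 and 3.14 CPM in LBDXL 3W against 41.1 and 15.9 CPM in BM 3D (log2 -2.64 ± 0.47, adjusted p = 0.00869). Aurka, a spindle kinase, stood at 1.16 and 0.846 CPM in LBDXL 3W against 27.1 and 5.37 CPM in BM 3D (log2 -4.01 ± 0.71, adjusted p = 0.00886). BM 3D 1 was the higher library for these genes, and the list's median was 3322% of FH in BM 3D 1 and 752% in BM 3D 2. The 4 members that did not pass, named after their values were seen, were Pcna, Ccnd1, Ccne1 and Tyms. The count of 21 was 2 without LBDXL 3W 2 and 6 without BM 3D 1. Ccnb1, Cdk1, Mcm2 and Aurka lost their calls without LBDXL 3W 2 (adjusted p 0.0614 to 0.0705). The calls of Plk1 and Ccnb2 held in all refits.

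Promoters of Ccnb2, Cdk1 and Ccnb1 are shown because cell cycle promoters are known for CCAAT boxes bound by NF-Y, for the cell cycle homology region and for E2F sites. The search covered the 250 bases before the start, on both strands. The CCAAT box, searched by those letters, was found before 17 of 20 cell division genes with a RefSeq promoter (85.0%), against 40.4% of all 11213 tested genes with one. The homology region, searched as TTTGAAA, was found before 3 of 20 genes, against 4.82% of all. The E2F site, searched as TTGGCGC, was found before 5 of 20 genes, against 3.89% of all. The RefSeq sequences run 5′ to 3′ with matches in capitals, all on the minus strand of GRCm38.p6: Ccnb2 at chr9:70421555-70421804, Cdk1 at chr10:69352913-69353162 and Ccnb1 at chr13:100786487-100786736. In Ccnb1 1 CCAAT match overlaps the E2F match, and no matches overlap in the others.
Ccnb2: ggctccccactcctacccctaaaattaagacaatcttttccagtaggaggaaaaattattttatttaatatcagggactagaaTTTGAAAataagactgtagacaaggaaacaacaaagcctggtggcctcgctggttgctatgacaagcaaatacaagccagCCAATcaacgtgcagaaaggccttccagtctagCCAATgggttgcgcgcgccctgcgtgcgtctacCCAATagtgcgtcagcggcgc
Cdk1: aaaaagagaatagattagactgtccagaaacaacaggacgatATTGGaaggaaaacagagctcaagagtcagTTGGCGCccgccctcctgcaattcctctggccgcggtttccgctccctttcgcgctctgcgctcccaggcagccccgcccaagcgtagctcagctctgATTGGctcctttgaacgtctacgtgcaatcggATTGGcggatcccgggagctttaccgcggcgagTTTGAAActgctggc
Ccnb1: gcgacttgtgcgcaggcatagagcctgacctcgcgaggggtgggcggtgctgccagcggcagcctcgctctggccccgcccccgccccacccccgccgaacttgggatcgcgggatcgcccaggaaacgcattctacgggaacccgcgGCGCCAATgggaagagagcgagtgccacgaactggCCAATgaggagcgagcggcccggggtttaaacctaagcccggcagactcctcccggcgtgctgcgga

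The actin cytoskeleton was lower in 9 of 30 genes and higher in 0 (median log2 -1.02), and 28 of the 30 lay nearer to FH in LBDXL 3W. Actn1, an actin cross-linker of focal adhesions, stood at 44.6 and 24.2 CPM in LBDXL 3W against 152 and 185 CPM in BM 3D and 49.8 ± 0.452 CPM in FH (log2 -2.29 ± 0.28, adjusted p = 0.00323). LBDXL 3W was at or under the fresh level and BM 3D well above it. Tagln2, a transgelin, stood at 131 and 98.4 CPM in LBDXL 3W against 289 and 329 CPM in BM 3D (log2 -1.43 ± 0.27, adjusted p = 0.0111). Lasp1, an adhesion adaptor, stood at 257 and 157 CPM in LBDXL 3W against 495 and 471 CPM in BM 3D (log2 -1.22 ± 0.26, adjusted p = 0.0170). Cfl1, the actin-severing cofilin, stood at 320.0 and 221 CPM in LBDXL 3W against 594 and 568 CPM in BM 3D (log2 -1.103 ± 0.25, adjusted p = 0.0196). Even so LBDXL 3W kept a median of 371% of FH against 642% in BM 3D. Microtubule and intermediate filament genes were lower in 8 of 19 cases and higher in 0 (median log2 -1.39). Vim, the mesenchymal filament vimentin, stood at 52.6 and 10.3 CPM in LBDXL 3W against 199.9 and 318 CPM in BM 3D and 3.09 ± 0.235 CPM in FH (log2 -3.04 ± 0.58, adjusted p = 0.0110). Tubb6, a beta-tubulin, stood at 31.2 and 12.7 CPM in LBDXL 3W against 95.8 and 103 CPM in BM 3D (log2 -2.17 ± 0.38, adjusted p = 0.00786). Krt8 and Krt18, the keratin pair of hepatocytes, were lower too, Krt8 at 605 and 343 CPM in LBDXL 3W against 1383 and 3131 CPM in BM 3D (log2 -2.25 ± 0.43, adjusted p = 0.0114). Krt18 stood at 471 and 193 CPM in LBDXL 3W against 1032 and 2394 CPM in BM 3D (log2 -2.37 ± 0.48, adjusted p = 0.0135). Tagln2, Lasp1, Cfl1, Krt8 and Krt18 lost their calls without LBDXL 3W 2 (adjusted p 0.0799 to 0.132), Lasp1 and Cfl1 without BM 3D 1 (adjusted p 0.0658 to 0.0755), and Krt18 without BM 3D 2 (adjusted p = 0.0504). The actin cytoskeleton count of 9 was 1 without LBDXL 3W 2, 18 without LBDXL 3W 1, 4 without BM 3D 2 and 22 by total counts. The microtubule and filament count of 8 was 2 without LBDXL 3W 2, 13 without LBDXL 3W 1 and 5 without BM 3D 1.

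YAP/TEAD targets were lower in 7 of 21 cases and higher in 0 (median log2 -0.78). Ctgf, a matricellular protein and standard YAP target (chromosome 10, 24595442 to 24598683, NCBI gene 14219), stood at 90.0 and 18.7 CPM in LBDXL 3W against 351 and 535 CPM in BM 3D, and at 1.79 ± 0.174 CPM in FH (log2 -3.03 ± 0.61, adjusted p = 0.0136). LBDXL 3W was lower than BM 3D in every library and still above fresh cells. Fjx1, a Golgi kinase-like protein, stood at 0.159 and 0.0604 CPM in LBDXL 3W against 3.403 and 7.93 CPM in BM 3D (log2 -5.58 ± 0.85, adjusted p = 0.00614). Nuak2, a kinase of the AMPK family, stood at 2.27 and 2.36 CPM in LBDXL 3W against 13.9 and 6.65 CPM in BM 3D (log2 -2.15 ± 0.43, adjusted p = 0.0125). F3, the tissue factor, stood at 9.46 and 3.08 CPM in LBDXL 3W against 20.5 and 52.2 CPM in BM 3D (log2 -2.53 ± 0.50, adjusted p = 0.0125). Ajuba, a LIM protein that restrains the kinase LATS, stood at 43.7 and 35.2 CPM in LBDXL 3W against 87.5 and 95.4 CPM in BM 3D (log2 -1.21 ± 0.33, adjusted p = 0.0351). In all 4 both LBDXL 3W libraries lay under both BM 3D libraries. Cyr61 and Ankrd1, further standard targets, had lower values in LBDXL 3W but did not pass, at 84.7 and 9.73 CPM in LBDXL 3W against 316 and 127 CPM in BM 3D (log2 -2.23 ± 0.86, adjusted p = 0.107) and 30.2 and 6.16 CPM in LBDXL 3W against 105 and 33.7 CPM in BM 3D (log2 -1.93 ± 0.69, adjusted p = 0.0892). Yap1 itself stood at 97.7 and 96.3 CPM in LBDXL 3W against 119.6 and 102 CPM in BM 3D and 92.6 ± 7.03 CPM in FH and did not pass (log2 -0.19 ± 0.18, adjusted p = 0.520). Of 20 Hippo pathway components 3 were lower and 0 higher, among them the TEAD factor Tead4 (log2 -3.22 ± 0.89, adjusted p = 0.0388) and the scaffold Frmd6 (log2 -1.24 ± 0.33, adjusted p = 0.0326). Nuak2, F3, Ajuba, Tead4 and Frmd6 lost their calls without LBDXL 3W 2 (adjusted p 0.0647 to 0.202), Nuak2, Ajuba, Tead4 and Frmd6 without BM 3D 1 (adjusted p 0.0705 to 0.153), and Ajuba without BM 3D 2 (adjusted p = 0.0940). Ajuba and Frmd6 lost their calls without FH 1 or 2 or FH Yap-/- 1 or 2 (adjusted p 0.0527 to 0.0586). Tead4 lost its call without FH Yap-/- 1 or 2, BM 3W 1 or 2 or BM 3W Yap-/- 1 or 2 (adjusted p 0.0513 to 0.0576). Without LBDXL 3W 2 the target count was 2. The YAP/TEAD target count of 7 was 2 without LBDXL 3W 2, 12 without LBDXL 3W 1, 3 without BM 3D 1 and 14 by total counts. The Hippo component count of 3 was 0 without LBDXL 3W 2 or BM 3D 1, 6 without LBDXL 3W 1 and 10 by total counts.

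The promoter of Ajuba is printed for its TEAD letters. GGAATG or its reverse complement CATTCC was found in the 250 bases before the start of 7 of 15 YAP/TEAD targets with a promoter (46.7%), against 13.1% of all 11213. The sequence is on the minus strand of GRCm38.p6, chr14:54577662-54577911, from RefSeq, with its 2 matches in capitals.
Ajuba: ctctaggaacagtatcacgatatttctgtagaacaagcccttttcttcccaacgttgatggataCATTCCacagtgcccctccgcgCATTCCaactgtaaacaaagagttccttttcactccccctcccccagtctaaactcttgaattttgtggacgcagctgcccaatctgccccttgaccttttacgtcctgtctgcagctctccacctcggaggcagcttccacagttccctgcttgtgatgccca

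**Figure D4:**
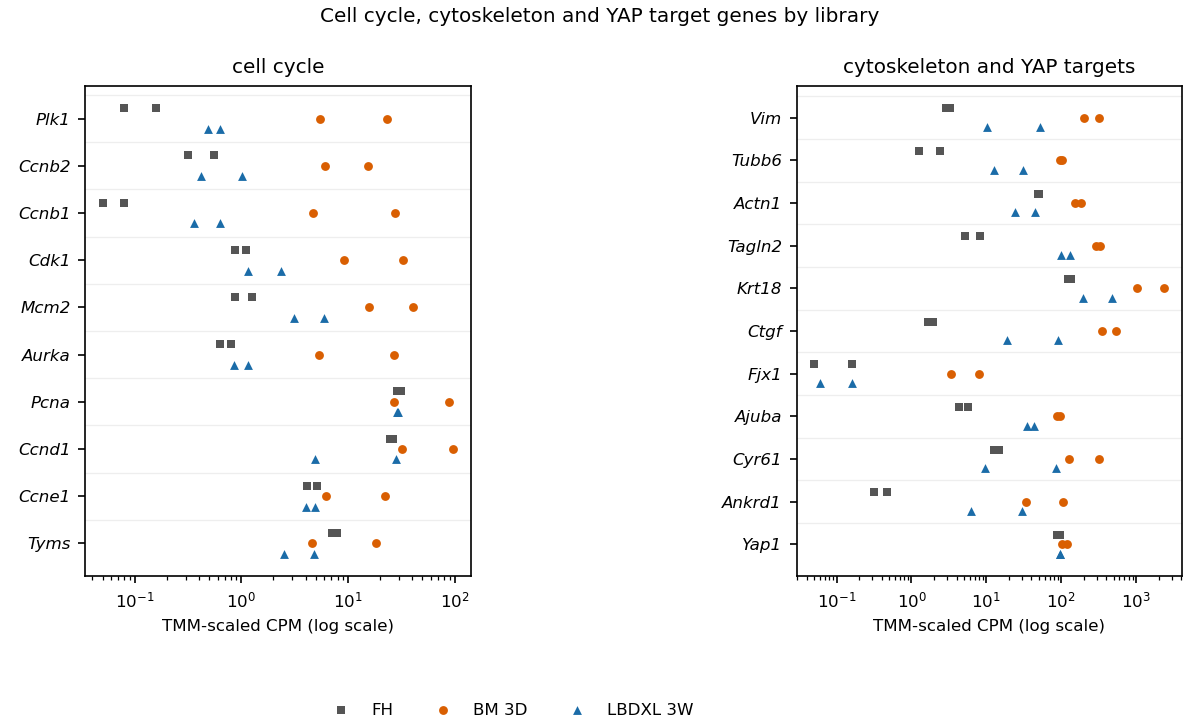
Levels (TMM-scaled CPM, log axis, values under 0.05 drawn at 0.05) of cell cycle genes (left), with the 4 that did not pass at the bottom, and of cytoskeletal and YAP target genes (right), 1 point per library. For Plk1 to Aurka and for Vim to Ajuba the LBDXL 3W triangles lie to the left of the BM 3D circles, while the Yap1 points lie close together. Genes were chosen after their values were seen.

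Extracellular matrix and mesenchymal genes were lower in 7 of 32 cases and higher in 0 (median log2 -0.81). Spp1, the secreted phosphoprotein osteopontin, stood at 15.2 and 9.61 CPM in LBDXL 3W against 106 and 525 CPM in BM 3D and 23.5 ± 2.44 CPM in FH (log2 -4.67 ± 0.72, adjusted p = 0.00572). Thbs1, thrombospondin, stood at 17.7 and 3.38 CPM in LBDXL 3W against 91.8 and 106 CPM in BM 3D (log2 -3.22 ± 0.62, adjusted p = 0.0116). Lox, a collagen cross-linking oxidase, stood at 9.14 and 0.785 CPM in LBDXL 3W against 30.6 and 49.3 CPM in BM 3D (log2 -2.99 ± 0.72, adjusted p = 0.0244). LBDXL 3W 2 was the lowest library for all 3. Col1a1, a chain of type I collagen, did not pass (log2 -0.69 ± 0.62, adjusted p = 0.487), and its BM 3D libraries at 5.67 and 27.3 CPM lay on both sides of LBDXL 3W at 11.3 and 9.06 CPM. Integrins and laminins were lower in 5 of 19 cases and higher in 0 (median log2 -1.15). The integrin Itgav stood at 70.3 and 35.9 CPM in LBDXL 3W against 185 and 210.4 CPM in BM 3D (log2 -1.89 ± 0.31, adjusted p = 0.00671). The integrin Itga3 stood at 61.8 and 18.97 CPM in LBDXL 3W against 219 and 161 CPM in BM 3D (log2 -2.23 ± 0.42, adjusted p = 0.0110). The calls of both integrins, Spp1 and Thbs1 held in all refits. The matrix count of 7 was 4 without LBDXL 3W 2, 15 without LBDXL 3W 1, 3 without BM 3D 2 and 12 by total counts. The integrin and laminin count of 5 was 3 without BM 3D 1 and 11 by total counts. Lox lost its call without BM 3D 1 (adjusted p = 0.0505) and without BM 3D 2 (adjusted p = 0.0689).

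Junction genes went in both directions. Of 21, 4 were lower and 2 higher. Cgn, a tight junction adaptor, stood at 70.8 and 88.0 CPM in LBDXL 3W against 262 and 303 CPM in BM 3D and 33.6 ± 2.86 CPM in FH (log2 -1.83 ± 0.24, adjusted p = 0.00354). The claudin Cldn4 stood at 1.11 and 0.302 CPM in LBDXL 3W against 14.2 and 43.9 CPM in BM 3D, with 0 counts in FH (log2 -5.32 ± 0.79, adjusted p = 0.00591). Cdh1 was also among the 4 lower. Gjb1, the gap junction protein connexin 32 of hepatocytes, was higher at 258 and 341 CPM in LBDXL 3W against 75.4 and 107 CPM in BM 3D and 786 ± 10.6 CPM in FH (log2 1.71 ± 0.42, adjusted p = 0.0267). Ocln, occludin, stood at 33.4 and 45.6 CPM in LBDXL 3W against 22.9 and 20.7 CPM in BM 3D (log2 0.86 ± 0.21, adjusted p = 0.0266). Gjb1 and Ocln lost their calls without LBDXL 3W 2 (adjusted p 0.136 to 0.185), without BM 3D 1 (adjusted p 0.0816 to 0.140), and without BM 3D 2 (adjusted p 0.0526 to 0.0935). Ocln lost its call by total counts (adjusted p = 0.270), and Gjb1 and Ocln on an FPKM scale (adjusted p 0.0603 to 0.407). The log2 difference of Ocln was also under the limit of 1. Cdh17, an intestinal cadherin, was among the 10 largest falls of all genes, at 0.529 and 0.181 CPM in LBDXL 3W against 10.5 and 47.6 CPM in BM 3D (log2 -6.30 ± 0.84, adjusted p = 0.00455), next to the galectin Lgals3, at 1.27 and 0.362 CPM in LBDXL 3W against 31.2 and 45.7 CPM in BM 3D (log2 -5.52 ± 0.68, adjusted p = 0.00323). Fresh cells had 0.0795 ± 0.112 and 0.952 ± 0.228 CPM of them, far under BM 3D. The lower junction count of 4 was 9 by total counts. The higher junction count of 2 was 0 without LBDXL 3W 2 or BM 3D 1 and 1 without BM 3D 2 or by total counts.

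Stress and early response genes were mostly lower where they passed. Of 16 immediate early factors 6 were lower and 1 higher. Klf6, a zinc finger factor, stood at 168 and 72.7 CPM in LBDXL 3W against 444 and 398 CPM in BM 3D and 4.84 ± 1.14 CPM in FH (log2 -1.81 ± 0.41, adjusted p = 0.0197). Myc stood at 47.4 and 23.6 CPM in LBDXL 3W against 134 and 78.7 CPM in BM 3D (log2 -1.58 ± 0.36, adjusted p = 0.0198). Atf3 stood at 11.8 and 8.52 CPM in LBDXL 3W against 25.5 and 24.9 CPM in BM 3D (log2 -1.31 ± 0.30, adjusted p = 0.0209). Jun went the other way, at 94.0 and 105 CPM in LBDXL 3W against 58.5 and 53.4 CPM in BM 3D (log2 0.83 ± 0.18, adjusted p = 0.0170). Among 19 NRF2 targets 3 were lower and 0 higher, namely Hmox1, the inducible haem oxygenase, at 14.9 and 4.11 CPM in LBDXL 3W against 100.1 and 85.9 CPM in BM 3D (log2 -3.28 ± 0.47, adjusted p = 0.00463), Osgin1 (log2 -2.39 ± 0.46, adjusted p = 0.0116) and Gclc, the catalytic subunit of glutathione synthesis (log2 -2.11 ± 0.52, adjusted p = 0.0261). Among 17 p53 targets 3 were lower and 0 higher, led by the receptor Eda2r at 3.70 and 1.39 CPM in LBDXL 3W against 28.5 and 17.9 CPM in BM 3D (log2 -3.18 ± 0.46, adjusted p = 0.00482). Klf6, Myc, Atf3, Jun, Osgin1 and Gclc lost their calls without LBDXL 3W 2 (adjusted p 0.0727 to 0.168), Klf6, Myc, Atf3, Jun and Gclc without BM 3D 1 (adjusted p 0.0621 to 0.112), and Jun and Gclc without BM 3D 2 (adjusted p 0.0634 to 0.0686). Jun lost its call by total counts (adjusted p = 0.192) and on an FPKM scale (adjusted p 0.328 to 0.356), and its log2 difference was under the limit of 1. Hmox1 and Eda2r kept theirs. The immediate early count of 6 was 1 without LBDXL 3W 2 or BM 3D 1, 11 without LBDXL 3W 1 and 3 without BM 3D 2. The NRF2 count of 3 was 1 without LBDXL 3W 2 and 5 by total counts. The p53 count of 3 was 1 without LBDXL 3W 2 and 7 without LBDXL 3W 1 or by total counts.

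Inflammatory genes gave calls in both directions. Of 14 chemokines 3 were lower and 2 higher. Ccl2, a monocyte attractant, stood at 14.3 and 1.75 CPM in LBDXL 3W against 176 and 86.5 CPM in BM 3D and 0.238 ± 0.000818 CPM in FH (log2 -4.03 ± 0.78, adjusted p = 0.0115). Cxcl16 stood at 7.98 and 1.27 CPM in LBDXL 3W against 44.3 and 47.7 CPM in BM 3D (log2 -3.30 ± 0.61, adjusted p = 0.0102). Cxcl12, a homeostatic chemokine, was higher, at 158 and 163 CPM in LBDXL 3W against 29.7 and 40.2 CPM in BM 3D and 417 ± 9.67 CPM in FH (log2 2.20 ± 0.35, adjusted p = 0.00624). LBDXL 3W thus lay nearer to fresh cells for all 3. Of 22 acute phase and innate genes 3 were lower and 1 higher: Saa1 and Saa2 and the lipopolysaccharide co-receptor Cd14 (7.82 and 5.68 CPM in LBDXL 3W against 39.6 and 30.8 CPM in BM 3D; log2 -2.38 ± 0.37, adjusted p = 0.00583) on one side, and Il6ra, the interleukin 6 receptor (52.1 and 107 CPM in LBDXL 3W against 13.2 and 20.4 CPM in BM 3D; log2 2.25 ± 0.37, adjusted p = 0.00667), on the other. Interferon response genes were lower in 5 of 20 cases and higher in 0 (median log2 -0.84), and here LBDXL 3W was the farther from fresh cells. The list's median was 43.1% of FH against 85.6% in BM 3D, and only 4 of 20 lay nearer to FH in LBDXL 3W. Irf7, a regulator of interferon genes, stood at 15.2 and 6.46 CPM in LBDXL 3W against 34.0 and 30.3 CPM in BM 3D and 31.9 ± 0.727 CPM in FH (log2 -1.56 ± 0.41, adjusted p = 0.0340). Rsad2, viperin, stood at 1.96 and 1.27 CPM in LBDXL 3W against 8.22 and 6.30 CPM in BM 3D (log2 -2.16 ± 0.58, adjusted p = 0.0345). The lower chemokine count of 3 was 7 without LBDXL 3W 1 and 5 by total counts. The higher chemokine count of 2 was 1 without LBDXL 3W 2 or BM 3D 1. The lower acute phase count of 3 was 1 without LBDXL 3W 2 or BM 3D 1, 11 without LBDXL 3W 1 and 6 by total counts. The interferon count of 5 was 0 without LBDXL 3W 2, 1 without BM 3D 1 or BM 3D 2 and 9 by total counts. Saa2, Irf7 and Rsad2 lost their calls without LBDXL 3W 2 (adjusted p 0.0689 to 0.204), without BM 3D 1 (adjusted p 0.0590 to 0.124), and Irf7 and Rsad2 without BM 3D 2 (adjusted p 0.0556 to 0.0644). Irf7 lost its call without FH 1 or 2, FH Yap-/- 1 or 2 or BM 3W Yap-/- 2 (adjusted p 0.0505 to 0.0552). Rsad2 lost its call without FH Yap-/- 1 or 2 or BM 3W Yap-/- 2 (adjusted p 0.0506 to 0.0508). Rsad2 lost its call on an FPKM scale (adjusted p 0.0823 to 0.147).

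Markers of other liver cells differed between the cultures as well. In bulk samples fewer cells of a type and less RNA per cell cannot be told apart. Of 16 Kupffer cell and macrophage markers 14 were lower in LBDXL 3W and 0 higher (median log2 -4.81, or -4.79 with genes at 0 counts set to their bound). Their summed level was 6.45 and 5.68 CPM in LBDXL 3W, 130.2 and 89.9 CPM in BM 3D, and 171 and 116 CPM in FH. C1qa, a complement subunit made by macrophages, stood at 0.264 and 0.121 CPM in LBDXL 3W against 4.94 and 6.35 CPM in BM 3D (log2 -4.799 ± 0.46, adjusted p = 0.00274). Csf1r, the macrophage growth factor receptor, stood at 0.529 and 0.483 CPM in LBDXL 3W against 4.46 and 7.29 CPM in BM 3D (log2 -3.51 ± 0.37, adjusted p = 0.00290). Cd68, a lysosomal macrophage protein, was the most abundant of them in BM 3D, at 0.687 and 2.05 CPM in LBDXL 3W against 41.6 and 38.4 CPM in BM 3D, above the 3.10 ± 1.24 CPM of FH (log2 -4.88 ± 0.65, adjusted p = 0.00354). Clec4f, a lectin that defines Kupffer cells, and Timd4 had 0 counts in both LBDXL 3W libraries. Clec4f stood at 0.810 and 2.32 CPM in BM 3D, and the mean of these was at least 8.62-fold above a floor of 3 counts per library. Of the 16, 1 lay nearer to FH in LBDXL 3W. The macrophage count of 14 was 7 without LBDXL 3W 2. The calls of C1qa, Csf1r and Cd68 held there. Clec4f lost its call without LBDXL 3W 2 (adjusted p = 0.0605). Clec4f lost its call on an FPKM scale (adjusted p 0.0919 to 0.149).

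Stellate cell and fibroblast markers went the other way, with 4 of 16 higher and 0 lower (median log2 1.37). Dcn, the matrix proteoglycan decorin, stood at 323 and 160.3 CPM in LBDXL 3W against 39.0 and 52.4 CPM in BM 3D and 46.9 ± 5.32 CPM in FH (log2 2.40 ± 0.46, adjusted p = 0.0115). Lum (20.6 and 9.48 CPM in LBDXL 3W against 2.63 and 3.65 CPM in BM 3D; log2 2.27 ± 0.47, adjusted p = 0.0150), the transcription factor Hand2 (8.51 and 3.32 CPM in LBDXL 3W against 0.365 and 1.38 CPM in BM 3D; log2 2.78 ± 0.67, adjusted p = 0.0244) and the collagen Col14a1 (69.8 and 42.4 CPM in LBDXL 3W against 6.85 and 21.2 CPM in BM 3D; log2 2.004 ± 0.58, adjusted p = 0.0454) were the others. Their summed level was 759.6 and 374 CPM in LBDXL 3W against 119 and 291 CPM in BM 3D, and 183 and 149.7 CPM in FH. Only 1 of the 16 lay nearer to FH in LBDXL 3W. Without BM 3D 1 the count was 0. Col14a1 lost its call without LBDXL 3W 2 (adjusted p = 0.0939), Dcn, Lum, Hand2 and Col14a1 without BM 3D 1 (adjusted p 0.0751 to 0.202), and Hand2 and Col14a1 without LBDXL 3W 1 (adjusted p 0.0713 to 0.110). Col14a1 lost its call without FH 1 or 2, FH Yap-/- 1 or 2 or BM 3W Yap-/- 1 or 2 (adjusted p 0.0647 to 0.0720). Col14a1 lost its call by total counts (adjusted p = 0.0514), with a replicate block (adjusted p = 0.0515), and Hand2 on an FPKM scale (adjusted p = 0.0788). The stellate cell count of 4 was 2 without LBDXL 3W 1 and 0 without BM 3D 1.

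Endothelial markers showed how unlike the 2 LBDXL 3W libraries were. Of 17, 0 passed, and their summed level was 269.8 CPM in LBDXL 3W 1 and 24.8 CPM in LBDXL 3W 2, against 275 and 389 CPM in BM 3D. The count of 0 rested on LBDXL 3W 1, and without it 14 of the 17 were lower (median log2 -5.09, against -1.18 with both). Stab2, a scavenger receptor of sinusoidal cells, stood at 43.2 and 1.15 CPM in LBDXL 3W against 35.1 and 63.5 CPM in BM 3D (log2 -1.15 ± 1.03, adjusted p = 0.487). Pecam1, an endothelial adhesion protein, stood at 31.0 and 0.785 CPM in LBDXL 3W against 28.4 and 40.2 CPM in BM 3D (log2 -1.103 ± 1.02, adjusted p = 0.499). LBDXL 3W 2 was also the library with the higher medians in the amino acid and phase I lists, and the part of other cells in those differences was not tested. Cholangiocyte and progenitor markers were lower in 4 of 18 cases and higher in 0 (median log2 -1.81). Krt19, a duct keratin, stood at 1.27 and 0.121 CPM in LBDXL 3W against 10.2 and 30.9 CPM in BM 3D (log2 -4.84 ± 1.39, adjusted p = 0.0441). Krt23 stood at 0.740 and 0.0604 CPM in LBDXL 3W against 5.71 and 2.56 CPM in BM 3D (log2 -3.32 ± 0.98, adjusted p = 0.0485), beside Spp1 and Cldn4. The summed cholangiocyte level was 433 and 119 CPM in LBDXL 3W against 572 and 1085 CPM in BM 3D. Ptprc, the leukocyte protein CD45, stood at 0 and 0.0604 CPM in LBDXL 3W against 1.46 and 0.936 CPM in BM 3D (adjusted p = 0.00485). Coro1a, an actin regulator of leukocytes, stood at 0.0529 and 0.0604 CPM in LBDXL 3W against 0.203 and 1.92 CPM in BM 3D (adjusted p = 0.0485), the 2 lower of 5 tested lymphocyte and neutrophil markers, at 1 and 2 counts in LBDXL 3W. Krt19, Krt23 and Coro1a lost their calls without LBDXL 3W 2 (adjusted p 0.217 to 0.225), Krt19 and Krt23 without BM 3D 1 (adjusted p 0.0705 to 0.176), Krt19, Krt23 and Coro1a without BM 3D 2 (adjusted p 0.0501 to 0.369), and Coro1a without LBDXL 3W 1 (adjusted p = 0.122). Krt19 and Krt23 lost their calls without FH 1 or 2, FH Yap-/- 1 or 2, BM 3W 1 or 2 or BM 3W Yap-/- 1 or 2 (adjusted p 0.0580 to 0.0761). Coro1a lost its call without FH 1 or 2, FH Yap-/- 1 or 2, BM 1D 1 or 2, BM 3W 1 or 2 or BM 3W Yap-/- 1 or 2 (adjusted p 0.0572 to 0.0734). Krt19 lost its call with a replicate block (adjusted p = 0.0546) and Ptprc and Coro1a on an FPKM scale (adjusted p 0.0530 to 0.293). The cholangiocyte count of 4 was 2 without LBDXL 3W 2 or BM 3D 2, 7 without LBDXL 3W 1 and 9 by total counts. The leukocyte count of 2 was 1 without LBDXL 3W 2, LBDXL 3W 1 or BM 3D 2.

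**Figure D5:**
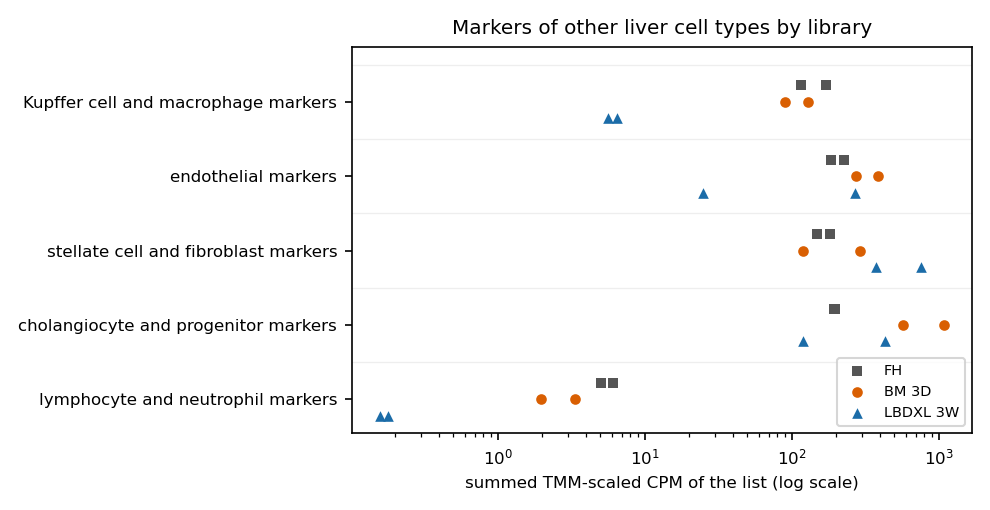
Summed level (TMM-scaled CPM, log axis) of the markers of 5 other cell types, 1 point per library, for FH (squares), BM 3D (circles) and LBDXL 3W (triangles). Macrophage markers are lowest in both LBDXL 3W libraries, while the endothelial sum of LBDXL 3W 1 lies with BM 3D and that of LBDXL 3W 2 far to the left.

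The remaining lists held few calls. Of 20 lysosome and autophagy genes 3 were lower and 1 higher. Gpnmb, a membrane glycoprotein of lysosomes, was lower, at 0.899 and 1.09 CPM in LBDXL 3W against 29.7 and 43.6 CPM in BM 3D and 0.516 ± 0.0579 CPM in FH (log2 -5.201 ± 0.55, adjusted p = 0.00290), a call that held in all refits. Of 14 Notch pathway genes the ligand Jag1 (log2 -2.74 ± 0.53, adjusted p = 0.0120) and the target Hes1 (log2 -1.65 ± 0.37, adjusted p = 0.0197) were lower, and the ligand Dll1 (log2 2.19 ± 0.45, adjusted p = 0.0148) was higher. Hk2, the hexokinase of non-hepatic cells, was lower (log2 -3.33 ± 0.56, adjusted p = 0.00718) and was the 1 call among 16 glycolysis isoforms. Of 9 fetal liver genes Igf2bp1, an mRNA-binding protein, was lower (log2 -5.13 ± 1.01, adjusted p = 0.0164). Dlk1 was higher, with 0 counts in BM 3D and 3.86 and 0.423 CPM in LBDXL 3W. Its LBDXL 3W mean, carried mainly by LBDXL 3W 1, was at least 14.5-fold above a floor of 3 counts per library. Afp, the albumin relative of the fetus, did not pass, at 40.9 and 23.8 CPM in LBDXL 3W against 14.5 and 127 CPM in BM 3D (log2 -1.13 ± 0.76, adjusted p = 0.348). Among 17 iron-handling genes the transferrin receptor Tfrc was lower (log2 -1.41 ± 0.38, adjusted p = 0.0346) and Hfe2, hemojuvelin, higher (log2 2.11 ± 0.57, adjusted p = 0.0358), with a list median of 0.19 that turned to -0.30 by total counts. Lists of heat shock proteins (15 tested), the TGF-beta pathway (21), the integrated stress response (22) and lipid droplet genes (15) held 1, 1, 2 and 2 calls in either direction. Jag1, Hes1, Dll1, Hk2, Igf2bp1, Dlk1, Tfrc and Hfe2 lost their calls without LBDXL 3W 2 (adjusted p 0.0542 to 0.212), Hes1, Dll1, Igf2bp1, Dlk1, Tfrc and Hfe2 without BM 3D 1 (adjusted p 0.0530 to 0.166), Hes1, Dlk1 and Hfe2 without BM 3D 2 (adjusted p 0.0555 to 0.117), and Dlk1 without LBDXL 3W 1 (adjusted p = 0.110). Dlk1 lost its call without FH 1 or 2, FH Yap-/- 1 or 2 or BM 3W Yap-/- 1 or 2 (adjusted p 0.0543 to 0.0783). Tfrc and Hfe2 lost their calls without FH 1 or 2 or FH Yap-/- 1 or 2 (adjusted p 0.0530 to 0.0587). Dlk1 and Hfe2 lost their calls on an FPKM scale (adjusted p 0.0595 to 0.392). The lysosome and autophagy count of 3 was 1 without LBDXL 3W 2 and 8 by total counts. The lower Notch count of 2 was 0 without LBDXL 3W 2, 1 without BM 3D 2 and 6 by total counts. The lower glycolysis count of 1 was 5 without LBDXL 3W 1 and 6 by total counts. The lower iron count of 1 was 3 without LBDXL 3W 1, 2 without BM 3D 2 and 4 by total counts. The lower fetal count of 1 was 2 without LBDXL 3W 1 or by total counts. The lower TGF-beta count of 1 was 8 without LBDXL 3W 1 and 6 by total counts. The lower stress response count of 1 was 5 without LBDXL 3W 1 and 4 by total counts. The heat shock count of 1 was 2 without LBDXL 3W 1 or BM 3D 2 and 3 by total counts. The lipid droplet count of 2 was 0 without LBDXL 3W 2 or BM 3D 1.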

How the data were processed

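RNA from 14 mouse hepatocyte libraries was sequenced after a stranded TruSeq preparation, per the labels' protocols. The authors' pipeline named Trimmomatic, HISAT2, Cufflinks, HTSeq and DESeq on GRCm38.p6, per the submitters' processing notes, with no versions, and the sources used here do not give whether counting used strand. The deposited table of counts per gene, not normalized, was the main input. The FPKM values deposited by the authors served only as an alternative, as log2(FPKM + 1) or log2(FPKM + 0.1) in limma 3.58.1, with a mean FPKM of at least 0.5.

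Genes were filtered with filterByExpr and scaled by TMM in edgeR 4.0.16 (R 4.3.3), and 14100 were fitted by quasi-likelihood over all 7 groups with no covariate. DESeq2 1.42.0 was an alternative. On data simulated for this comparison with 14100 genes, 12 of 100 genes changed by log2 1 and 78 of 100 changed by log2 2 were called, all with the right sign, and 8 of 13900 unchanged genes. Each gene was simulated with the same spread in all groups, unlike the real data, where LBDXL 3W and BM 3D replicates varied most. These rates may therefore not hold for the real comparison. A gene was nearer to FH where the absolute log2 difference of group means, with a prior count of 2, was smaller. Worse and better kept genes needed an FH mean of at least 100 CPM.

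Named genes were a panel of 22, the 10 largest rises and falls (a mean of 20 CPM or more in one of the groups), the 10 best and worst kept genes, and up to 6 called members of each of 50 lists. The rises, the falls and the best and worst kept genes were ranked by log2 difference and needed no overlap between groups. The members and lists were chosen with earlier results of these data known. Sums over families, motifs, the promoters printed and the genes of the cell cycle plot were chosen after values were seen. Mitochondrially encoded genes and Xist are not analysed here. Some genes that the rule named are not reported here.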

Additional observations from a re-analysis of the deposited data

How the results depend on the processing

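The side of the threshold was not stable. Of the 220 called genes that were named, 61 stayed under 0.05 in each of the 24 refits that gave a value. None of the 220 turned sign in any refit. They were chosen as called in these same data, some also for no overlap between groups, so this does not test direction. Over all genes 99 higher and 120 lower calls held in every one of those refits. The counts of 869 higher and 978 lower genes became 452 and 2886 by total counts, 1327 and 1550 with DESeq2, 518 and 2830 on log2(FPKM + 1), 513 and 2966 on log2(FPKM + 0.1), and 439 and 2384 without a filter on FPKM. On the 4 compared libraries alone edgeR gave 0 and 0 (1068 and 1079 at an unadjusted p under 0.05), and DESeq2, an alternative chosen after seeing the data, gave 577 and 545. The cause was not tested. Leaving out 1 library gave from 155 to 1296 higher and from 172 to 1644 lower genes, lowest without LBDXL 3W 2 and highest without LBDXL 3W 1. Of the 220 named calls, 81 held when LBDXL 3W 2 was left out, 107 for BM 3D 1, 141 for BM 3D 2 and 207 for LBDXL 3W 1. The share of genes nearer to FH in LBDXL 3W, 67.0%, was 75.8% by total counts and 74.8% on FPKM, and from 62.1% to 67.2% with 1 library left out. For the 1847 called genes alone this share was 77.6%, and it fell to 71.7% by total counts and 72.9% on FPKM. On those 2 scales the called genes thus lay under the share of all genes. With replicate number as a block, 995 genes were higher and 1137 lower, and 214 of the 220 named calls held. The labels do not say whether libraries with the same number are paired. The deviations of LBDXL 3W and BM 3D libraries with the same number correlated at 0.02, and 1 difference per group cannot settle this. With 2 libraries a group, differences of log2 1 were rarely called in data simulated with the same spread in all groups.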
